A study of Rattus norvegicus with 6 samples.

Results

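The genes described here are 9 genes of redox and glutathione metabolism that the transcription factor NRF2 controls or that belong to its pathway. They are the sensor gene Keap1, the cystine carrier Slc7a11, the glutathione synthesis genes Gclc and Gclm, the disulfide reductase genes Gsr and Txnrd1, the peroxiredoxin repair gene Srxn1, the quinone reductase gene Nqo1 and the transketolase gene Tkt. Their probes were taken by name, as every probe other than controls whose RefSeq accession belongs to 1 of the 9 genes, so no signal threshold decided which probes were taken, but the 9 genes themselves were proposed with earlier results of these arrays known. This gave 17 of the 61657 probes on each array, and 9 of the 15284 genes that the accessions name.

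In resting cells KEAP1 holds NRF2 in the cytoplasm and marks it for degradation. Electrophiles and oxidants modify cysteines of KEAP1, NRF2 then enters the nucleus, pairs with small MAF proteins and binds antioxidant response elements beside its target genes. In liver this pathway is known for supplying glutathione and NADPH and for quinone and peroxide reduction during exposure to drugs and other foreign compounds.

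Livers came from 6 male Sprague-Dawley rats bought at 5 weeks of age, and the total RNA of each was read on a 1-colour (Cy3) oligonucleotide array of its own. The control group of 3 rats received corn oil, the vehicle, and the treated group of 3 rats received 1000 mg per kg per day of phenolphthalein, a dye that indicates pH and was formerly used as a laxative. The treatment protocol gives 9 weeks for both groups, whereas the design text gives 28 days. Going by the names of the scans, slide 1, read in scan 1, held the 3 control arrays and slide 2, read in scan 2, the 3 treated ones. If these names hold, treatment cannot be told apart from slide or scan in any value given here.

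The 75th percentile of the spot signal was 551 to 636 per array, and 62.1% to 65.1% of probes were well above background. Markers of hepatocytes, 7 of 7 tested, had a summed signal of 3529 to 3767 times the 75th percentile in corn oil and 3627 to 3778 in phenolphthalein. The 11 markers of Kupffer cells and macrophages summed to 191 to 273 in corn oil and 141 to 186 in phenolphthalein, so these groups did not overlap, although the third replicate of each lay close to the other at 191 and 186. The 6 tested markers of lymphocytes and other leukocytes summed to 3.04 to 3.55 in corn oil and 2.17 to 2.51 in phenolphthalein. The brightest of them marks leukocytes in general and weighs most in this sum. All 6 had a lower mean, and the groups did not overlap for 4 of them, beside 11% lower among all named genes. The 5 markers of bile duct cells summed to 1.63 to 1.78 in corn oil and 2.08 to 2.15 in phenolphthalein, and the brightest of them weighs most in this sum. The mean was higher for 4 of them and lower for 1. The groups did not overlap for 3, all higher, beside 12.2% higher among all named genes. The 5 markers of pericentral hepatocytes all had a lower mean with phenolphthalein, with a median log2 fold change of -0.31 that ran from -0.34 to -0.22 with 1 array left out. Their summed signal was 396 to 483 in corn oil and 365 to 432 in phenolphthalein, and the groups overlapped. In bulk liver, fewer cells of a type and less RNA per cell cannot be told apart. The part of these differences in the values of the 9 genes was not tested.

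Of the 17 probes, 14 were well above background on all 6 arrays and were tested. They stand for 8 of the 9 genes. The other 3 are the probes of Slc7a11, of which 1 was well above background on 2 arrays and 2 on 0 arrays. Values given are log2 of the background-subtracted signal relative to the 75th percentile of the array. A level of 1 probe says nothing about the level of another, because probes differ in how well they bind, so each probe is compared between groups and never with another probe.

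The probes of Gsr and Tkt and 2 of the 4 probes of Txnrd1 read higher on all 3 phenolphthalein arrays than on any corn oil array, by 1.24 to 1.59-fold. The probes of Nqo1, Srxn1, Gclc, Gclm and Keap1 overlapped between the groups. None of the 14 probes passed limma's moderated test at a Benjamini-Hochberg adjusted p under 0.05 over the 39411 probes tested, where 0.0482% of all probes passed. The groups did not overlap for 4 of the 14, all higher with phenolphthalein, beside 11.8% higher and 9.23% lower among all probes. With an unadjusted p under 0.05, 4 of the 14 were higher and 0 were lower, beside 6.84% higher and 6.37% lower among all probes. The mean was higher for 11 of the 14 probes and lower for 3, beside 53.4% higher among all probes. Their median log2 fold change was 0.27, beside 0.02 over all probes tested. Without corn oil replicate 3 this median was 0.10, and without phenolphthalein replicate 3 it was 0.16. The probes are not independent, since 4 of them read Txnrd1 and Gclc, Srxn1 and Nqo1 have 2 each.

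**Figure D1:**
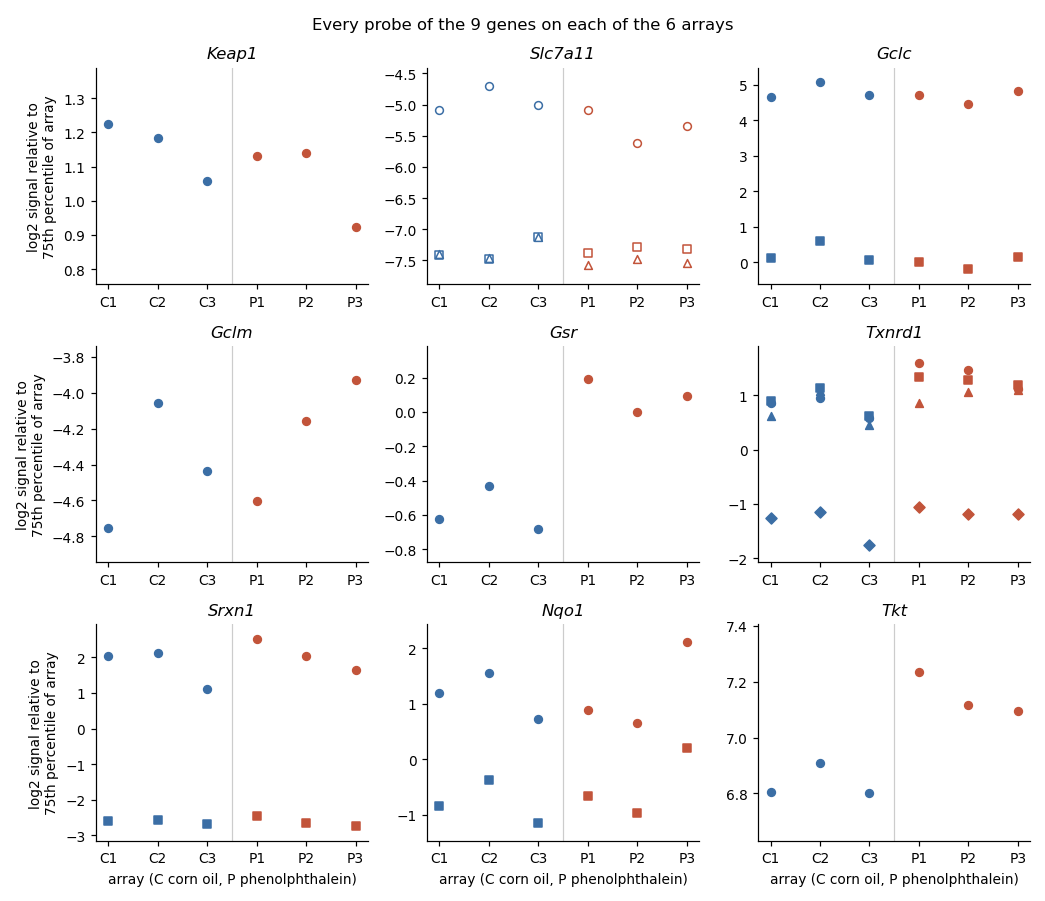
Log2 signal relative to the 75th percentile of the array (vertical axis, a scale for each panel) of every probe of the 9 genes on the 3 corn oil arrays (C1 to C3, blue) and the 3 phenolphthalein arrays (P1 to P3, red). Each marker shape is 1 probe, and open markers are the Slc7a11 probes, which were not tested. Gsr and Tkt separate the groups, whereas Nqo1 stands highest on phenolphthalein array 3 and second highest on corn oil array 2.

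Keap1 codes for the cysteine-rich adaptor that presents NRF2 to a cullin ubiquitin ligase. In the order of the replicate numbers, which all lists of values follow, its probe read 1.22, 1.18 and 1.06 in the 3 corn oil animals and 1.13, 1.14 and 0.92 in the 3 phenolphthalein animals. The groups overlapped, with the lowest value on phenolphthalein replicate 3. The log2 fold change was -0.09 ± 0.10 (SE, n = 3 per group), with a limma adjusted p of 0.72 and a 95% interval of -0.34 to 0.15. It was -0.02 without phenolphthalein replicate 3, -0.14 without corn oil replicate 3 and -0.01 with median scaling. Among the 9 genes it is the repressor of the pathway.

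Slc7a11 codes for the cystine carrier xCT, which brings in the precursor of cysteine for glutathione. Its brightest probe read -5.09, -4.70 and -5.01 in corn oil and -5.09, -5.62 and -5.34 in phenolphthalein, and exceeded background clearly on 1 array of each group. The first replicates of the groups were thus level to 2 decimals. The other probes were not well above background on any array and lay between -7.58 and -7.12. The transcript was near the detection limit of these arrays in both groups, and no fold is given.

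Gclc and Gclm code for the catalytic and the modifier subunit of glutamate-cysteine ligase, the rate-limiting enzyme of glutathione synthesis. The brighter Gclc probe read 4.65, 5.08 and 4.73 in corn oil and 4.70, 4.46 and 4.82 in phenolphthalein. The dimmer one read 0.10, 0.59 and 0.05 in corn oil and -0.01, -0.20 and 0.14 in phenolphthalein. Both probes were highest on corn oil replicate 2 and lowest on phenolphthalein replicate 2, and the groups overlapped. Their log2 fold changes were -0.16 ± 0.15 and -0.27 ± 0.18 (SE, n = 3 per group), with limma adjusted p of 0.689 and 0.543. The values ran from -0.24 to -0.03 and from -0.37 to -0.10 with 1 array left out, so the mean stayed lower in these fits, and both values were nearest to 0 without corn oil replicate 2.

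The Gclm probe was dim but well above background on all 6 arrays. It read -4.75, -4.06 and -4.44 in corn oil and -4.60, -4.16 and -3.93 in phenolphthalein. The highest value was on phenolphthalein replicate 3 and the lowest on corn oil replicate 1, with the groups overlapping between them. The log2 fold change was 0.18 ± 0.24 (SE, n = 3 per group), with a limma adjusted p of 0.771, and the 95% interval of -0.41 to 0.77 spans both directions. The value was 0.02 with control animal 1 dropped and 0.03 with treated animal 3 dropped. Dropping control animal 2 gave 0.36, and dropping treated animal 1 gave 0.37. The 2 subunits of this ligase thus had means on opposite sides of 0, neither past the threshold, and the difference between them was not tested.

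Gsr codes for glutathione reductase, which spends NADPH to turn oxidised glutathione back into the reduced form. Its single probe read -0.62, -0.43 and -0.68 in the 3 corn oil animals and 0.19, -0.002 and 0.09 in the 3 phenolphthalein animals. All 3 treated arrays lay above all 3 control arrays, and the range within a group was 0.25 in corn oil and 0.19 in phenolphthalein. Its log2 fold change was 0.67 ± 0.10 (SE, n = 3 per group), or 1.59-fold with a 95% interval of 1.33 to 1.90-fold. The unadjusted p was 0.000674 and the limma adjusted p 0.163, so the difference did not pass over all probes. It stayed between 0.62 and 0.75 with 1 array left out and was 0.45 with normexp background correction. An exact two-sided permutation test over the 6 arrays gave p = 0.1, the smallest that 3 against 3 allows. Every probe whose groups do not overlap has this value, so it adds nothing to the separation given above.

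Txnrd1 codes for cytosolic thioredoxin reductase, a selenoprotein that spends NADPH to reduce thioredoxin. Its 4 probes share 1 RefSeq accession, and the files do not give which stretch of the transcript each of them covers. Probe A_44_P456738 read 0.86, 0.96 and 0.57 in corn oil and 1.59, 1.46 and 1.11 in phenolphthalein, so the groups did not overlap. Its log2 fold change was 0.59 ± 0.17 (SE, n = 3 per group), with an unadjusted p of 0.0118 and a limma adjusted p of 0.268. Its spot on phenolphthalein replicate 3 lay in a low array column. In such a column at least 5% of bright probes read over 2 log2 units below their median on the other arrays. With that spot missing the log2 fold change was 0.73 and the limma adjusted p 0.211.

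The second Txnrd1 probe, A_44_P554454, read 0.89, 1.13 and 0.61 in corn oil and 1.35, 1.28 and 1.20 in phenolphthalein. These groups did not overlap either, by a margin of less than 0.1 between corn oil replicate 2 and phenolphthalein replicate 3. The log2 fold change was 0.40 ± 0.15 (SE, n = 3 per group), with a limma adjusted p of 0.345. The remaining probes had log2 fold changes of 0.29 ± 0.18 for A_44_P134070 and 0.24 ± 0.17 for A_64_P076475, with limma adjusted p of 0.522 and 0.576. Both overlapped between groups, through corn oil replicate 2, which reached 1.07 and -1.15. All 4 probes had a higher mean with phenolphthalein and all 4 were lowest on corn oil replicate 3. Without that array their log2 fold changes were 0.48, 0.26, 0.16 and 0.06 in the order given. Taken as the mean of its 4 probes in a fit over genes, Txnrd1 had a log2 fold change of 0.38 and a limma adjusted p of 0.344.

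**Figure D2:**
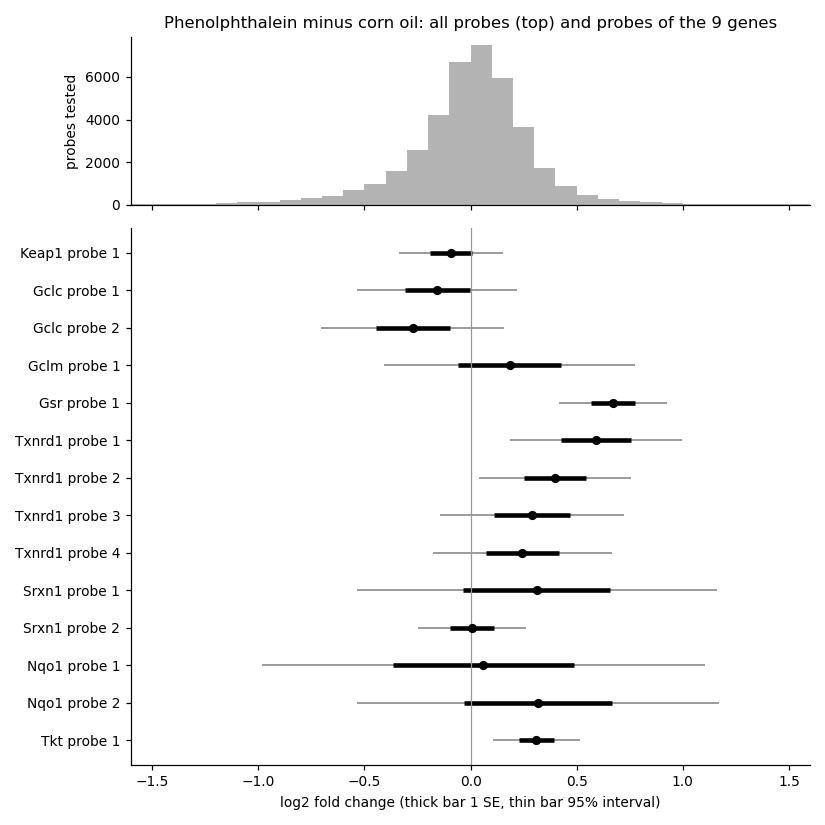
Log2 fold change of phenolphthalein over corn oil (horizontal axis, shown from -1.6 to 1.6) for all 39411 probes tested (histogram of counts in steps of 0.1, top) and for the 14 tested probes of the 9 genes (points, with 1 SE as thick and the 95% interval as thin bars). The intervals of Gsr, both upper Txnrd1 probes and Tkt lie above 0 before adjustment, and those of Nqo1 and the brighter Srxn1 probe reach from below -0.5 to above 1.

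Srxn1 codes for sulfiredoxin, which restores overoxidised peroxiredoxins. Its brighter probe read 2.05, 2.13 and 1.099 in corn oil and 2.51, 2.05 and 1.66 in phenolphthalein. Values within a group differed up to 2.05-fold, and corn oil replicate 3 alone stood apart from the other controls. The log2 fold change was 0.31 ± 0.35 (SE, n = 3 per group), with a limma adjusted p of 0.725, and it was -0.02 without corn oil replicate 3. The dimmer probe varied less, from -2.69 to -2.57 in corn oil and from -2.74 to -2.45 in phenolphthalein, and its log2 fold change was 0.01 ± 0.10 (SE), with a limma adjusted p of 0.985. Its 95% interval, -0.25 to 0.26, is narrower than that of the brighter probe, -0.53 to 1.16.

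Nqo1 codes for the quinone reductase that is widely used as a readout of NRF2. Its brighter probe read 1.19, 1.56 and 0.72 in the 3 corn oil animals and 0.89, 0.65 and 2.11 in the 3 phenolphthalein animals. Its dimmer probe read -0.83, -0.38 and -1.15 in corn oil and -0.66, -0.96 and 0.21 in phenolphthalein. On both probes phenolphthalein replicate 3 was the highest array and corn oil replicate 2 the next. The treated animals differed among themselves by 2.76-fold on the brighter probe and the controls by 1.78-fold, while the group means differed by 1.04-fold.

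The log2 fold changes of Nqo1 were 0.06 ± 0.43 and 0.32 ± 0.35 (SE, n = 3 per group), with limma adjusted p of 0.963 and 0.722. The 95% interval of the brighter probe, 0.506 to 2.15-fold, holds changes of both directions, so these arrays do not bound Nqo1 closely. Without phenolphthalein replicate 3 the values were -0.39 and -0.02, and without phenolphthalein replicate 2 they were 0.34 and 0.56. Over the 6 arrays the 2 probes had a Pearson correlation of 0.944 and a Spearman correlation of 0.886, and their points share the arrays and the transcript. The spread of Nqo1 between animals was therefore read alike by both probes.

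Tkt codes for transketolase, an enzyme of the non-oxidative pentose phosphate pathway, which is linked to NADPH supply. Its probe read 6.80, 6.91 and 6.80 in corn oil and 7.23, 7.12 and 7.10 in phenolphthalein, and no spot was saturated. All treated arrays lay above all controls, with ranges within a group of 0.11 and 0.14. The log2 fold change was 0.31 ± 0.08 (SE, n = 3 per group), or 1.24-fold with a 95% interval of 1.07 to 1.43-fold. The unadjusted p was 0.0102 and the limma adjusted p 0.259, and the value ran from 0.27 to 0.34 with 1 array left out.

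**Figure D3:**
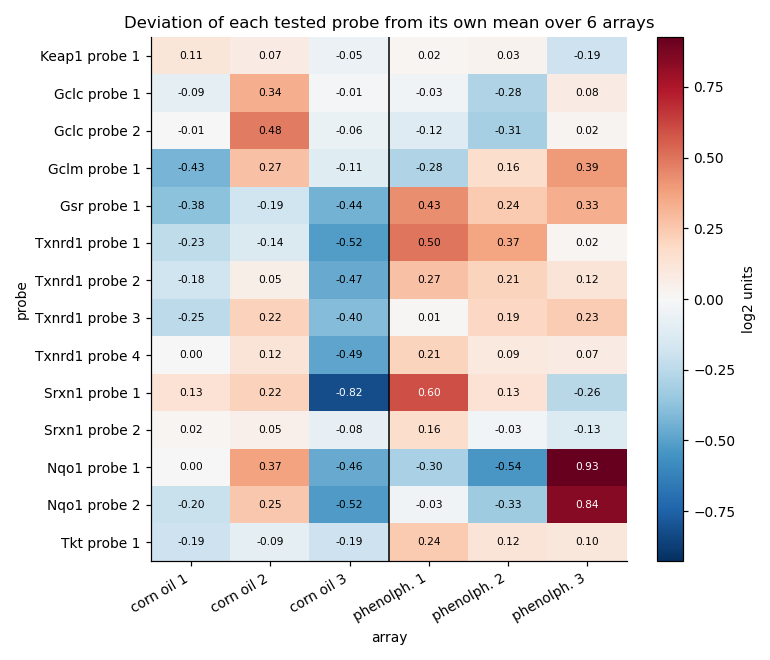
Deviation of each of the 14 tested probes (rows) from its own mean over the 6 arrays (columns), in log2 units, red above and blue below the mean. Corn oil array 3 is low for the Txnrd1, Nqo1 and brighter Srxn1 probes, and phenolphthalein array 3 is high for both Nqo1 probes.

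By array, the median deviation of the 14 probes from their own means was -0.14, 0.17 and -0.42 in the 3 corn oil animals and 0.09, 0.10 and 0.09 in the 3 phenolphthalein animals. Corn oil replicate 3 was the lowest array for 8 of the 14 probes, and corn oil replicate 2 lay above all 3 treated arrays in this median. Phenolphthalein replicate 1 was the highest array for 7 probes and phenolphthalein replicate 3 for 4. The highest and the lowest animal thus differed from gene to gene. Between probes of the same gene the correlation over the 6 arrays was 0.62 to 0.958 with a median of 0.845 in 9 pairs, and between probes of different genes its median was 0.222 in 82 pairs. Taking the brightest tested probe of each gene, the groups did not overlap for 3 of 8 genes, all higher with phenolphthalein, beside 12.2% higher and 11% lower among 11434 named genes taken the same way.

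**Figure D4:**
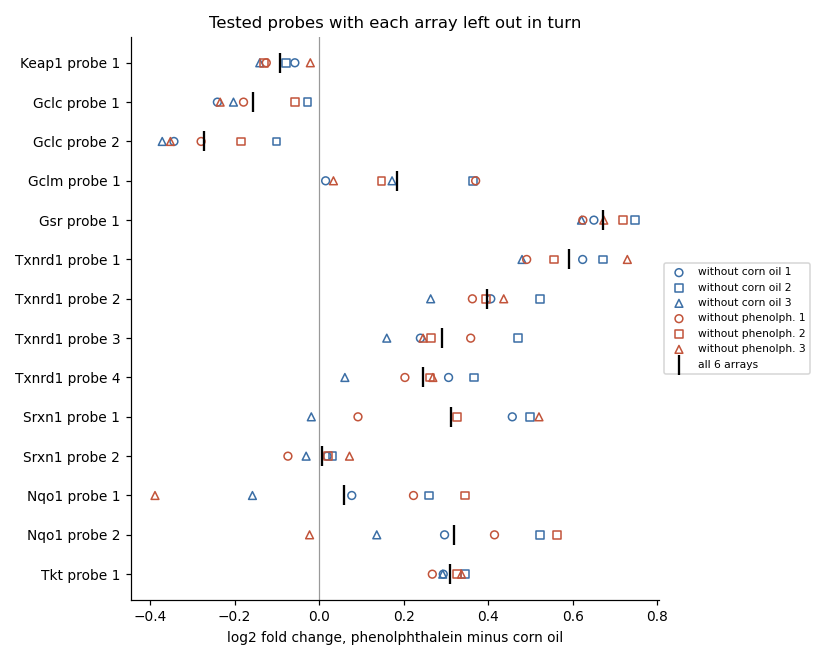
Log2 fold change of the 14 tested probes with all 6 arrays (black bars) and with each array left out in turn (open markers, blue for a corn oil and red for a phenolphthalein array). Gsr and Tkt stay near their values, the Nqo1 probes and the Srxn1 probes cross 0, and all 4 Txnrd1 probes are lowest without corn oil array 3.

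Promoter sequence was searched for the antioxidant response element because it is the element that NRF2 binds beside its target genes. RefSeq windows of assembly GRCr8, from 250 bases before to 50 after a start site, were read for Keap1, Slc7a11, Gclc, Gclm, Txnrd1, Srxn1, Nqo1 and Tkt, 8 of the 9 genes, with 2 windows for Txnrd1. The letters TGACNNNGC, on either strand, were found in 2 of the 9 windows, beside 12.1% of 33469 windows of the same length. The first letters of this motif are shared with AP-1 sites. Both matches lie on the strand opposite to the gene and are printed on the strand of the gene, with the 9 matching bases in capitals. The Gclm segment is chr2:213031938-213031996 on the plus strand, with the match starting 172 bases before the start site. The Txnrd1 segment is chr7:22755949-22756007 on the minus strand, with the match starting 78 bases before the start site.
Gclm: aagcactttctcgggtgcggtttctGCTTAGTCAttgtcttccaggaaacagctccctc
Txnrd1: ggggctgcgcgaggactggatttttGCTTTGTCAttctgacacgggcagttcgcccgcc
A match is a description of these letters alone, and no match says only that the letters are not in the window. Txnrd1 has probes that separated the groups and the Gclm probe did not. The other Txnrd1 window held no match. The Tkt probe separated the groups and its window held no match, and no window was available for Gsr.

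The other genes of the pathway were described from 8 lists, which hold 115 entries and gave 108 tested genes with 1 probe each. None of the 108 passed limma's adjusted threshold, beside 0.0525% of all named genes, and 9 were higher and 6 lower with an unadjusted p under 0.05, beside 6.4% and 7.75% of all named genes. The median log2 fold change was 0.04, beside 0.01 over all named genes, and the mean was higher for 62 genes and lower for 46, beside 51.8% higher among all named genes. The same shares of all named genes stand beside the counts of each list below.

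The list of NRF2 control has 10 genes, with the gene of NRF2 itself and genes that act for or against NRF2. Of these, 2 had an unadjusted p under 0.05, both higher. The median was 0.14, which has no direction for NRF2 because the roles oppose each other. Leaving out corn oil replicate 3 gave a median of 0.04, and leaving out corn oil replicate 1 gave 0.21. Nfe2l2, which codes for NRF2 itself, had a log2 fold change of 0.04 ± 0.22 (SE, n = 3 per group), with corn oil at 3.23 to 3.82 and phenolphthalein at 3.23 to 3.86, and ran from -0.13 to 0.20 with 1 array left out. Sqstm1, whose protein p62 is an autophagy receptor that binds KEAP1, read 5.01, 5.09 and 5.05 in corn oil and 5.65, 5.59 and 5.37 in phenolphthalein. Its groups did not overlap and its log2 fold change was 0.48 ± 0.10 (SE, n = 3 per group), with a limma adjusted p of 0.209. Rbx1, the RING subunit of the cullin ligase, had a value of 0.21 ± 0.09 with an adjusted p of 0.371.

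Of 17 tested genes of glutathione handling, 1 was higher and 1 lower with an unadjusted p under 0.05, and the median was 0.005. Gpx2, a glutathione peroxidase best known from the gut, read -2.64, -2.63 and -2.80 in corn oil and -2.45, -0.99 and 0.01 in phenolphthalein. The treated animals thus ranged from near the controls to well above them. Its log2 fold change of 1.55 ± 0.59 (SE, n = 3 per group) had a limma adjusted p of 0.356 and ran from 0.97 to 2.20 with 1 array left out. Chac1, which degrades glutathione, had a value of -0.47 ± 0.17, with an adjusted p of 0.34, and -0.29 without phenolphthalein replicate 2. Glutathione synthetase, Gss, had -0.04 ± 0.11 and the phospholipid peroxidase Gpx4 0.005 ± 0.08.

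Of 16 thioredoxin and peroxiredoxin genes, 1 was higher and 1 lower with an unadjusted p under 0.05, and the median was 0.05. Txn1, the thioredoxin that the Txnrd1 enzyme reduces, had a log2 fold change of 0.04 ± 0.09 (SE, n = 3 per group), and Prdx1, a peroxiredoxin that sulfiredoxin repairs, 0.30 ± 0.14. Prdx5 had -0.26 ± 0.07 and the sestrin gene Sesn3 0.52 ± 0.18, with limma adjusted p of 0.271 and 0.324. For superoxide and peroxide removal, 6 genes had a median of 0.01. Sod2, the mitochondrial superoxide dismutase, had 0.33 ± 0.08 and the extracellular form Sod3 -0.42 ± 0.14, with adjusted p of 0.242 and 0.324. The groups did not overlap for these 2 genes, in opposite directions.

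The 12 tested genes of NADPH supply had a median of 0.01, with a higher mean in 6 and a lower one in 6, and 1 was higher and 0 were lower at an unadjusted p under 0.05. Idh2, a mitochondrial NADPH source, read 4.73, 4.96 and 4.92 in corn oil and 5.22, 5.27 and 5.25 in phenolphthalein. Its groups did not overlap, and its log2 fold change was 0.38 ± 0.09 (SE, n = 3 per group) with a limma adjusted p of 0.237. Taldo1, which codes for transaldolase and works beside transketolase in the non-oxidative pentose phosphate pathway, had 0.25 ± 0.11 with an adjusted p of 0.393.

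The 27 other NRF2 targets had a median of 0.16, with a higher mean in 19 and a lower one in 8, beside 51.8% higher among all named genes. An unadjusted p under 0.05 was found for 3 of them, all higher, beside 6.4% higher among all named genes. The median was 0.06 without phenolphthalein replicate 1. The glutathione transferase genes Gsta5 and Gsta4 had log2 fold changes of 0.37 ± 0.12 and 0.28 ± 0.10 (SE, n = 3 per group), and probes of this family may read more than 1 paralog. Hmox1, haem oxygenase, read 2.54, 2.03 and 1.77 in corn oil and 1.72, 1.54 and 1.63 in phenolphthalein. The groups did not overlap, and the log2 fold change was -0.49 ± 0.20 with a limma adjusted p of 0.384, which ran from -0.66 to -0.27 with 1 array left out. In liver, macrophages that clear red cells are rich in this enzyme, and the macrophage markers given above were lower in the same arrays. Their part in the Hmox1 value was not tested. Abcc3, an export pump, was high on phenolphthalein replicate 1 alone, at -0.74 against -2.84 and -2.24 on the other treated arrays, and had 0.52 ± 0.55, or -0.08 without that array.

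The list of cysteine supply has 11 genes and also covers methionine metabolism, cysteine use and amino acid uptake, so it does not measure supply alone. Of these genes, 1 was lower with an unadjusted p under 0.05, and the median was -0.01. Methionine synthase, Mtr, had a log2 fold change of -0.33 ± 0.11 (SE, n = 3 per group) and the amino acid carrier Slc1a5 -0.53 ± 0.23, with limma adjusted p of 0.329 and 0.389. The groups overlapped for Slc1a5, and its value was -0.30 without phenolphthalein replicate 2. The list of ATF4 targets, with 9 tested genes, also holds the gene of ATF4 itself, a stress factor that also drives Slc7a11. The mean was lower for 8 of the 9, beside 5508 of 11434 named genes. The median of the list was -0.54, which was -0.16 without corn oil replicate 2. Nupr1 had -0.71 ± 0.15 and Ddit3, which codes for CHOP, -0.51 ± 0.19, with adjusted p of 0.204 and 0.342.

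**Figure D5:**
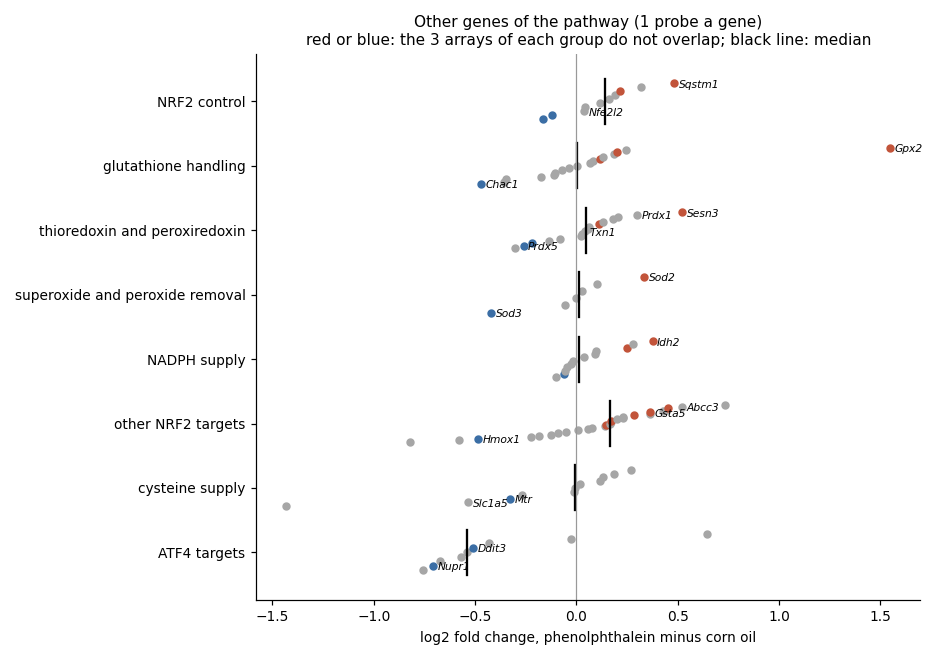
Log2 fold change of phenolphthalein over corn oil (horizontal axis) for the 108 tested genes of 8 pathway lists, 1 point a gene, with the median of each list as a black line. Points are red where all treated arrays lay above all controls, blue where all lay below and grey where the groups overlapped. Most lists have a median near 0, the list of ATF4 and its targets lies lower at -0.54, and Gpx2 stands farthest to the right at 1.55.

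The genes whose signal followed Gsr most closely over the 6 arrays, among 11418 named genes, were Prorsd1, Pex26 and C1ql2, with Pearson correlations of 0.9973, 0.9955 and 0.9953. Their log2 fold changes were 0.20, 0.23 and 0.71, so genes with unlike sizes of difference shared the shape. The 6 points share the split into groups, and 345 of these genes, 3.02%, had a correlation over 0.9.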

How the data were processed

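Per the file headers, the deposited scanner values are spot intensity from Agilent Feature Extraction 10.7.1.1 (10.7 in the submitters' processing notes), background-subtracted and spatially detrended. In the authors' deposited value table each array's intensity is this signal over a single factor, within 0.00501% of constant for values over 1, so the table is linear and not centred per gene. Its column medians were 0.0941 to 0.102.

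The signal of each array was divided by its 75th percentile over the 61657 probes other than controls and taken as log2. The 4 to 14 spots per array with an outlier mark were left out. A probe was tested where at least 3 of its 6 spots were well above background, whatever the group, which left 39411. Probes were named by unversioned accession through a RefSeq table of assembly GRCr8. Of all probes, 27460 matched 1 gene, and unnamed probes stayed in the test. limma 3.58.1 in R 4.3.3 (lmFit, eBayes) compared phenolphthalein with corn oil, with Benjamini-Hochberg adjustment over all probes. For the pathway lists the brightest tested probe stood for a gene.

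Groups and replicate numbers are those of the labels, 3 animals per group, and precision is set by this number of arrays. The 9 genes and the lists were chosen with earlier results of these data known. All probes of the 9 genes are described. Other genes named are the 3 most correlated with the gene of smallest p, the 2 of smallest p in each list, and Nfe2l2, Hmox1, Abcc3, Txn1, Prdx1, Gss and Gpx4. Apart from the genes described, 1 gene that this rule takes is not reported here. Alternatives were normexp (offset 50, on median spot signals), quantile and median scaling, filters on 0 or 6 arrays, an intensity trend with robust prior, marked spots kept, the deposited table, low array columns masked, 1 probe or the probe mean per gene, and fits without each array in turn or with a block for the replicate number.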

Additional observations from a re-analysis of the deposited data

How the results depend on the processing

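None of the probes of the 9 genes passed limma's adjusted threshold in any of the 18 alternative settings, in which the adjusted p of Gsr ran from 0.109 to 0.391. The count of all probes past the threshold was 19. It was 0 without a filter on dim probes, 7 with 1 probe a gene, 6 with probes averaged by gene and 0 with the replicate block, and 0 to 5 with 1 array left out. The setting without a filter tests 61657 probes and those by gene test 11434 genes, in place of 39411 probes. The cause of these changes in the count was not tested. The median log2 fold change of the tested probes of the 9 genes, 0.27, was 0.17 to 0.35 in the other settings and 0.10 to 0.37 with 1 array left out. The count of genes whose groups did not overlap, 3, was 2 with low array columns masked, where Txnrd1 lost a spot and was not counted. Without a filter it was 4, where Slc7a11 entered as lower with phenolphthalein, on a probe near background. With 1 array left out it was 3 to 4, and fewer arrays keep groups apart more readily. The share over all probes is not given for these settings. With normexp the dimmer Srxn1 probe had -0.0745 in place of 0.01, Gsr 0.45 in place of 0.67, the dimmer Gclc probe -0.10 in place of -0.27, and Txnrd1 probes A_44_P134070 and A_64_P076475 0.19 and 0.06 in place of 0.29 and 0.24. Gsr had the highest value of the tested probes in most settings, but Txnrd1 probe A_44_P456738 exceeded it with normexp, at 0.66, and at 0.73 with low array columns masked or without phenolphthalein replicate 3. With median scaling the brighter Gclc probe had -0.08 and the brighter Nqo1 probe 0.14. With 1 array left out the brighter and dimmer Srxn1 probes ran from -0.0187 to 0.52 and from -0.074 to 0.0716, and the brighter and dimmer Nqo1 probes from -0.39 to 0.34 and from -0.0228 to 0.56. The replicate numbers are labels without a stated pairing. Deviations of same-numbered animals had correlations of -0.01, 0.02 and 0.006 and 0 of 3 corn oil arrays correlated best with its own number. These few values cannot decide whether animals were paired, so the block stands as an alternative without a known pairing. No slide term could be fitted, since by the names of the scans each slide held 1 group. Signal near background limits Slc7a11, and 3 arrays per group limit the rest.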
